A study of Mus musculus with 14 samples.

Results

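The small proline-rich proteins of the mouse ileum are described here through 6 genes, Sprr1a, Sprr2a1, Sprr2a2, Sprr2a3, Sprr2b and Sprr2d. They were taken from the deposited count table by gene name, and they had been picked with the difference between the genotypes already known, so their genotype values are given as a description and carry no test. They are 6 of 17 genes named Sprr in the table and of 54532 genes in all, and 5 of the 6 passed the filter on low counts. RNA was sequenced from scraped ileum mucosa of male mice on a high fat diet (HFD) for 15 weeks, with 1 library per mouse. The 7 WT mice carried the floxed NCoR1 allele (flox/flox) without Cre. The 7 IKO mice carried the same floxed allele with Cre driven by the villin promoter, which is active in the intestinal epithelium, so immune, stromal and muscle cells in the scraping keep NCoR1. NCoR1 is a corepressor that recruits histone deacetylase to nuclear receptors and other transcription factors.

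SPRR proteins are short, rich in proline and glutamine, and best known as cross-bridges that transglutaminases join into the cornified envelope of stratified squamous epithelium. The genes lie side by side in the epidermal differentiation complex, and the Sprr2 branch has been multiplied in the mouse into near copies. In the intestine, which has no cornified layer, Sprr2a is made by epithelial cells, where it rises on contact with bacteria or worms and its product can damage Gram-positive bacteria.

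The library sizes were 14749669 to 21557468 counts. The share of mitochondrial transcripts was 50.3% for IKO 4, 23.9% for WT 3 and 3.49% to 10.3% elsewhere. Smooth muscle genes stood apart in WT 4, with a summed level of 15165 CPM (counts scaled to a common library size with TMM factors) against a WT median of 183. Ncor1 was at 134.7 ± 31.3 CPM (SD, n = 7) for WT and 50.6 ± 10.97 CPM (SD, n = 7) for the IKO mice, without overlap, a log2 fold change of -1.41 (edgeR quasi-likelihood test, adjusted p = 0.00051). The ileal genes Fabp6 and Slc10a2 and the epithelial gene Vil1 had counts in all 14 samples.

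The coding sequences show why the family carries its name, and how far its members can be told apart. Codons of the form CCN, which encode proline, are in capitals, and the sequences run from the start codon to the last codon before the stop in GENCODE M21 transcripts. Sprr2a1 is shown for the 3 near copies, Sprr2b for the next closest gene and Sprr2d for a relative that was listed at 0.
Sprr2a1: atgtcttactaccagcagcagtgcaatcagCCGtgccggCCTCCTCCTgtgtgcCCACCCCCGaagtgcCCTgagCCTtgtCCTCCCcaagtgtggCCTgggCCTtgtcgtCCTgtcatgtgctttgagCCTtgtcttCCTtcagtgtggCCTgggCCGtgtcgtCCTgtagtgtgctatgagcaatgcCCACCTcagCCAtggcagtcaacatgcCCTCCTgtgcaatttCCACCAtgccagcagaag
Sprr2b: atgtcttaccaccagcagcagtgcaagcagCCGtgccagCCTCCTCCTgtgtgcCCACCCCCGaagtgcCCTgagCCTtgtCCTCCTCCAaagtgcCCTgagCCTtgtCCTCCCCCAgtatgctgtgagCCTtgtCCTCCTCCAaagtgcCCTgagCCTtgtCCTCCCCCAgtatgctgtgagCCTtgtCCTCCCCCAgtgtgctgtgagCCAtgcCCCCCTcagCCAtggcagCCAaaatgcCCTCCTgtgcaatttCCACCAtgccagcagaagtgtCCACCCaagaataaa
Sprr2d: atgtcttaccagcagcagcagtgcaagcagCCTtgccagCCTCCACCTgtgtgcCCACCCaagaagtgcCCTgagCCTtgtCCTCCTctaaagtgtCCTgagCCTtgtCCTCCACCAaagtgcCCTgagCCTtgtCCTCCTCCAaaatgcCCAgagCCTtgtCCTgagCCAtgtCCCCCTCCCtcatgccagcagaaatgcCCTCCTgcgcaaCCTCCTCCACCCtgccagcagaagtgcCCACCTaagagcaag
The CCN codons made up 26 of 83 codons (31.3%) in each of Sprr2a1, Sprr2a2 and Sprr2a3, 41 of 98 (41.8%) in Sprr2b, 35 of 85 (41.2%) in Sprr2d and 46 of 144 (31.9%) in Sprr1a. The Sprr2a2 coding sequence had 0 differences from that of Sprr2a1 over 249 bases. Sprr2a3 differed from Sprr2a1 at 3 bases, G63A, G159T and A192T, counted from 1 at the first base of the start codon with the Sprr2a1 base first. All 3 were the last base of a CCN codon, so each codon still encodes proline. Over aligned bases the coding sequence of Sprr2b was 88.0% identical to that of Sprr2a1, that of Sprr2d 79.9% and that of Sprr1a 74.4%.

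This likeness bears on every count below. Sprr2a1 and Sprr2a2 transcripts were 99.9% identical, with 2 mismatches over 2867 aligned bases, and those of Sprr2a1 and Sprr2a3 were 98.9% identical, with 31 mismatches over 2880. A read was modelled as a window of 150 bases, the read length of the study. Of such windows in the Sprr2a1 transcript, 89.6% also occurred letter for letter in the transcript of another gene, and 89.0% did so for Sprr2a2. The partner was mostly the other gene of this pair, since 85.2% of Sprr2a1 windows were also in Sprr2a2 and 18.2% in Sprr2a3. Sprr2a3 stood further off, with 19.0% of its windows shared. Sprr2b, Sprr2d and Sprr1a shared 0 windows. How reads that match several genes were counted is not given in the sources used here, and the annotation also gives Sprr2a1 and Sprr2a2 43 exon bases in common (chromosome 3, 92215920 to 92215962, GRCm38). The split of counts between Sprr2a1 and Sprr2a2 is therefore uncertain, that of Sprr2a3 less so, and their sum is given beside the single values. The sum does not depend on the split, but it would be too low in both genotypes if reads that match several genes were left out.

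The 6 genes lie on chromosome 3 between 92215799 and 92485895 (GRCm38), a stretch of 270 kb. Sprr2a1 (92215799 to 92221911), Sprr2a2 (92215920 to 92256724), Sprr2a3 (92285417 to 92291405), Sprr2b (92316620 to 92318085) and Sprr2d (92339140 to 92340873) follow each other on the plus strand. Sprr1a (92483952 to 92485895) lies at the far end on the minus strand. Each has a GENCODE transcript of 2 exons.

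**Figure D1:**
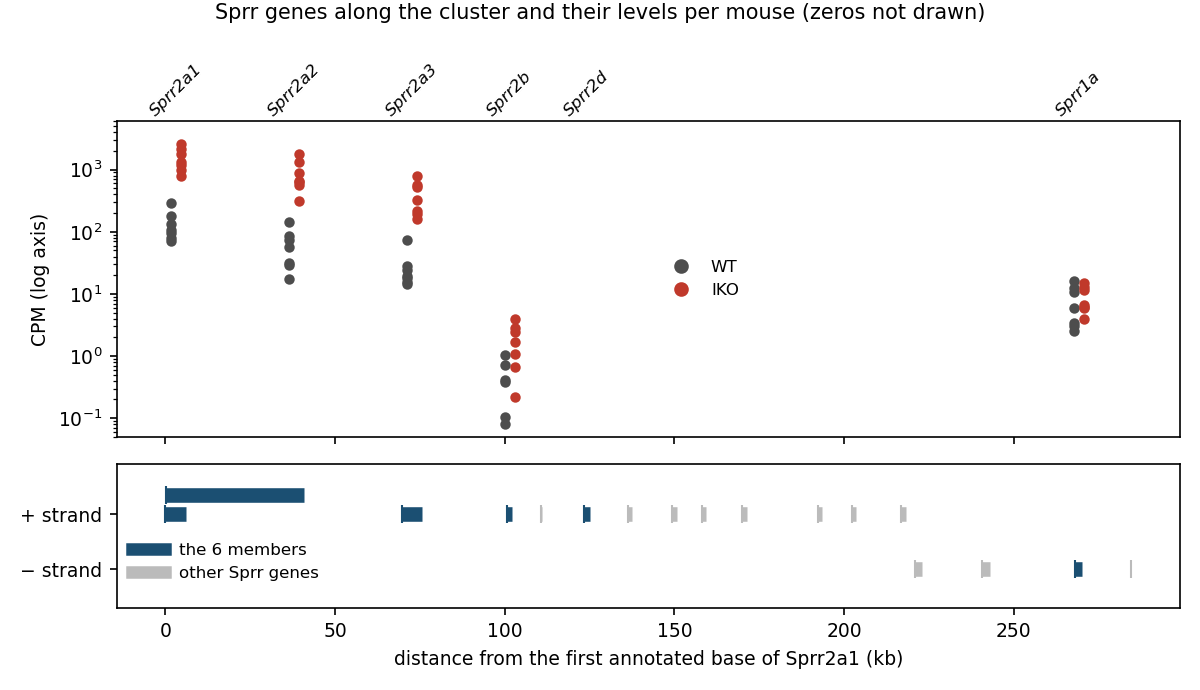
Sprr genes by distance in kb from the first annotated base of Sprr2a1 (horizontal axis), with the level of each member in every mouse above in CPM on a log axis (WT grey, IKO red, zeros not drawn) and gene extents by strand below. The 3 genes at the Sprr2a end carry the high levels, Sprr2b is near 1 CPM, Sprr2d has no points, and Sprr1a at the other end shows both genotypes at overlapping heights.

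The Sprr2a trio took most of the counts on the 6 members in every mouse, and its level was 12.4-fold higher in IKO mice. The summed CPM of Sprr2a1, Sprr2a2 and Sprr2a3 were 263, 199, 515, 238, 103, 155 and 125 in WT mice 1 to 7. In IKO mice 1 to 7 they were 3842, 4080, 1581, 1499.7, 4459, 2095 and 2217. The groups did not overlap, and the lowest IKO mouse (IKO 4) was 2.91 times the highest WT mouse (WT 3). The means were 228 ± 139 CPM (SD, n = 7) for WT and 2825 ± 1258 CPM (SD, n = 7) for the IKO mice, a fitted fold of 12.4 with a 95% confidence interval of 6.79 to 22.6. The trio made up 0.0110% to 0.0514% of all counts in WT and 0.0867% to 0.401% in IKO mice. These shares do not use the TMM factors, which were 0.931 to 1.53 in WT and 0.579 (IKO 4) to 0.967 in IKO mice. In CPM the distance between the genotypes is therefore wider than in these shares. The RNA is from a whole scraping, where more cells that make a transcript and more transcript in each cell cannot be told apart.

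Sprr2a1 had the most counts of any member in 13 of the 14 mice. Its CPM in WT mice 1 to 7 were 181, 94.9, 295, 136, 71.2, 105 and 80.1. In IKO mice 1 to 7 they were 2148, 1762, 790.0, 990.4, 2568, 1207 and 1335. All 7 IKO values lay above all 7 WT values, with a factor of 2.68 between the nearest pair. The fitted log2 fold change was 3.49 (SE 0.38), which is 11.2-fold with an interval of 6.43 to 19.6.

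Sprr2a2, which has the same coding sequence, was lower and more variable between mice in the counts assigned to it, a split that is uncertain. Its CPM in WT mice 1 to 7 were 57.3, 85.2, 145, 74.5, 17.2, 31.9 and 28.9, and in IKO mice 1 to 7 they were 893, 1783, 628, 317, 1329, 565 and 665. The highest WT mouse had 8.46 times the level of the lowest, against 4.14 times for Sprr2a1. IKO 2 was the mouse in which Sprr2a2 exceeded Sprr2a1. The log2 fold change was 3.81 (SE 0.50), or 14.05-fold with an interval of 6.70 to 29.5, and the nearest mice of the groups were 2.18-fold apart.

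Sprr2a3, most of whose windows are its own, gives the member-level value least open to the sharing of reads within the trio. Its CPM in WT mice 1 to 7 were 24.5, 19.3, 74.6, 27.8, 14.7, 17.8 and 15.8. In IKO mice 1 to 7 they were 802, 535, 163, 192, 562, 324 and 216. WT 3, at 74.6 CPM, stood apart from the next WT mouse at 27.8 CPM, and even so all IKO mice were higher, by a factor of 2.18 at the nearest. The log2 fold change was 3.85 (SE 0.48), or 14.4-fold with an interval of 7.12 to 29.0, so the 3 intervals of the trio overlap almost entirely.

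Sprr2b, the closest relative outside the trio, was detected at a trace. The counts were 2, 16, 6, 8, 2, 0 and 20 in WT mice 1 to 7 and 42, 68, 12, 2, 54, 29 and 18 in IKO mice 1 to 7. The mean was 0.388 ± 0.374 CPM (SD, n = 7) for WT and 1.84 ± 1.33 CPM (SD, n = 7) for the IKO mice. The groups overlapped, with 5 of 7 IKO mice above the highest WT mouse and IKO 4 below the WT median. The log2 fold change was 2.26 (SE 0.71), or 4.78-fold with an interval of 1.68 to 13.6, and it was 1.06 on the log2(FPKM + 1) scale without a filter, where the added 1 outweighs most of the values. Counting error is large here: the 2 counts of IKO 4 alone allow 0.0265 to 0.790 CPM (exact Poisson interval, which covers counting error only). Over the 7 IKO mice 225 counts fell on Sprr2b and 182917 on Sprr2a1, and whether any of the former were reads of the trio was not tested.

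Sprr2d was listed at 0 in all 14 mice, although it is the next member after Sprr2b on the chromosome. Taking 3 counts over a group as the limit, this allows up to 0.0209 CPM in WT and 0.0262 CPM in IKO mice. Of the 11 other Sprr genes in the table, Sprr2f and Sprr2h had 1 count each over all mice. The remaining 9 (Sprr1b, Sprr2c-ps, Sprr2e, Sprr2g, Sprr2i, Sprr2j-ps, Sprr2k, Sprr3 and Sprr4) had 0.

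Sprr1a, the member of the other Sprr branch, was detected in every mouse at a low level that did not separate the genotypes. The CPM in WT mice 1 to 7 were 3.43, 10.6, 12.4, 6.03, 15.9, 3.06 and 2.55, and in IKO mice 1 to 7 they were 11.6, 15.0, 3.99, 6.01, 12.8, 6.08 and 6.75. The highest value of all 14 belonged to WT 5 and the lowest to WT 7. The means were 7.70 ± 5.27 CPM (SD, n = 7) and 8.89 ± 4.17 CPM (SD, n = 7), a fold of 1.16 whose interval of 0.615 to 2.18 holds both a lower and a higher level in IKO mice but lies below the intervals of the 3 Sprr2a genes.

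**Figure D2:**
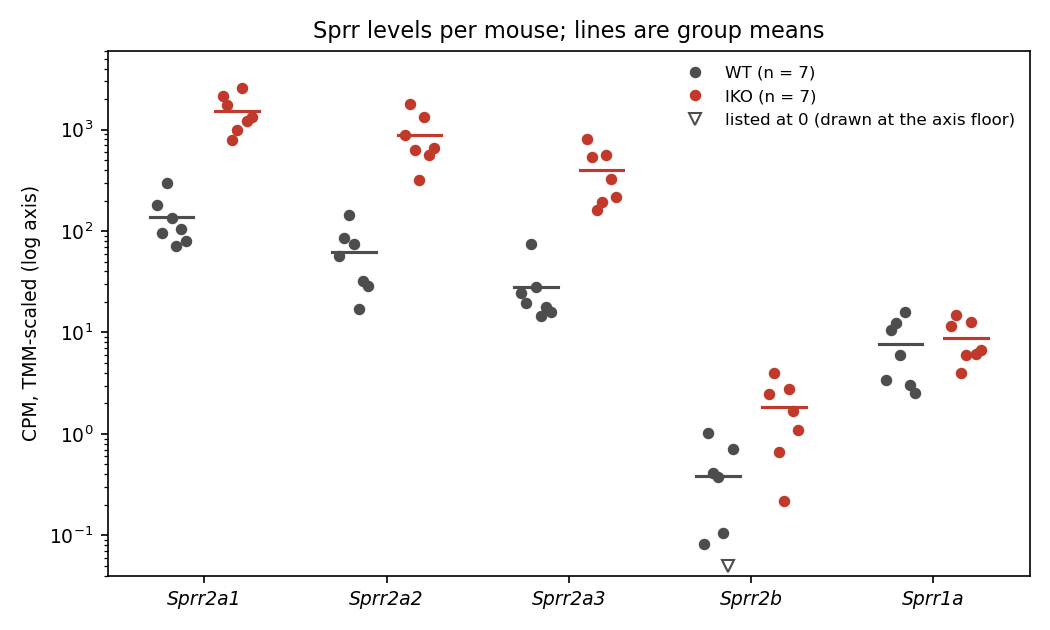
Level of the 5 members with counts (CPM on a log axis), 1 point per mouse, WT grey and IKO red, 7 each, with lines at the means and an open triangle for a mouse listed at 0. The 3 Sprr2a genes separate by genotype, from 71.2 to 295 against 790.0 to 2568 CPM for Sprr2a1, while Sprr2b overlaps in part and Sprr1a overlaps throughout.

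Every IKO value lay above every WT value in 3 of the 5 members tested, as it did in 1.83% of all 13846 genes tested, but the members were picked on this contrast and nothing is read from that share. Over all tested genes 4.38% were called higher and 4.28% lower in IKO mice. The members' log2 fold changes kept their sign in all 24 other fits that gave a value for Sprr2a1, Sprr2a2, Sprr2a3 and Sprr1a, and in 23 for Sprr2b. They ran from 3.32 to 3.79 for Sprr2a1, 3.55 to 4.17 for Sprr2a2, 3.58 to 4.32 for Sprr2a3 and 0.04 to 0.50 for Sprr1a. For Sprr1a no direction is read from the kept sign, since its interval holds both a lower and a higher level. Before any scaling, Sprr1a had 996 of 122998238 counts in WT and 1046 of 129422988 in IKO mice. Without IKO 4 and WT 4 together, the libraries with the most mitochondrial and the most smooth muscle RNA, the values for the trio were 3.57, 4.005 and 3.97.

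Levels can be compared between genes only per length of transcript, and here with a further limit. If reads that match several genes were left out, FPKM, ranks and shares of Sprr2a1 and Sprr2a2 would be too low against Sprr2a3 and Sprr1a. In FPKM, which the authors scaled by gene length, Sprr2a1 stood at 44.7 ± 25.2 (SD, n = 7) for WT and 515 ± 217 (SD, n = 7) for the IKO mice. The corresponding FPKM were 21.0 ± 14.5 and 304 ± 175 for Sprr2a2 and 9.38 ± 7.03 and 138.6 ± 82.5 for Sprr2a3. Sprr1a, with 9.33 ± 6.39 FPKM in WT mice, thus equalled Sprr2a3 there, and with 11.1 ± 5.19 FPKM in IKO mice it was far below. By FPKM rank among all genes of a mouse, Sprr2a1 was between place 521 and 1935 in WT and between place 74 and 198 in IKO mice. Per length, the trio made up 63.6% (WT 5) to 95.3% of the members' summed FPKM in WT mice, with a median of 91.2%, and 98.3% to 98.9% in IKO mice. The rest was mostly Sprr1a, which in WT 5 had 19.4 FPKM against 34.2 for the trio. The median rank of Sprr2a3 moved from 4890 to 542, that of Sprr2b from 13922 to 8153 and that of Sprr1a from 4505 to 4212.

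The make-up of the trio overlapped between the genotypes, while its amount did not. Of all counts on the 6 members, the median share of Sprr2a1 was 59.8% in WT and 57.4% in IKO mice. The share of Sprr2a2 was 22.6% and 29.7%, and that of Sprr2a3 was 11.4% and 12.8%, with ranges that overlapped for each of the 3 genes. Sprr1a differed, since its amount overlapped between the genotypes while that of the trio did not. Its share, which falls as the trio rises, was 1.29% to 13.4% in WT and 0.252% to 0.399% in IKO mice.

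**Figure D3:**
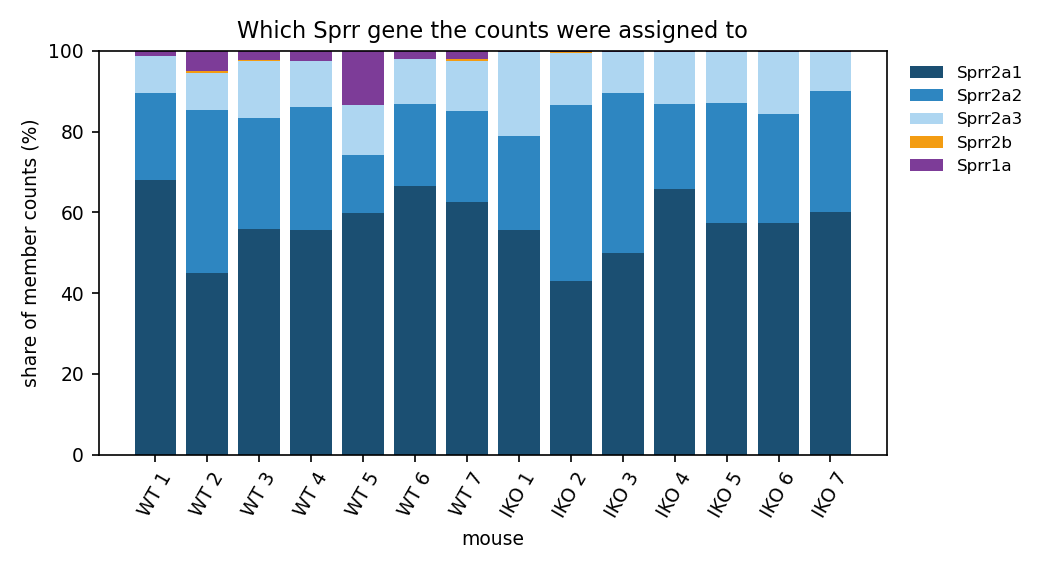
Share of each member in the summed counts of the 6 members (%), stacked for each mouse, WT 1 to 7 then IKO 1 to 7. Sprr2a1 holds 43.0% to 68.0% of the counts in every mouse, and the Sprr1a band at the top, 13.4% in WT 5, is too thin to see in the IKO mice.

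Mice with more of one Sprr2a gene had more of the others. With log2 levels centred within genotype, so that the genotype difference is removed, Pearson's r over the 14 mice was 0.92 between Sprr2a1 and Sprr2a3, 0.78 between Sprr2a1 and Sprr2a2 and 0.77 between Sprr2a2 and Sprr2a3. These points share libraries and, within the trio, possibly reads. Sprr1a, which shares no windows with the trio, followed Sprr2a1 with r = 0.92 in the 7 IKO mice, and between 0.86 and 0.99 with any of them left out. In the 7 WT mice r was 0.09, but it was 0.50 without WT 5 and -0.40 without WT 3, so no relation can be read there and the genotypes were not compared. IKO 1, 2 and 5 were the highest 3 of the IKO mice for the Sprr2a sum, for Sprr2b and for Sprr1a alike. In WT mice, WT 5 had the highest Sprr1a and the lowest Sprr2a.

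**Figure D4:**
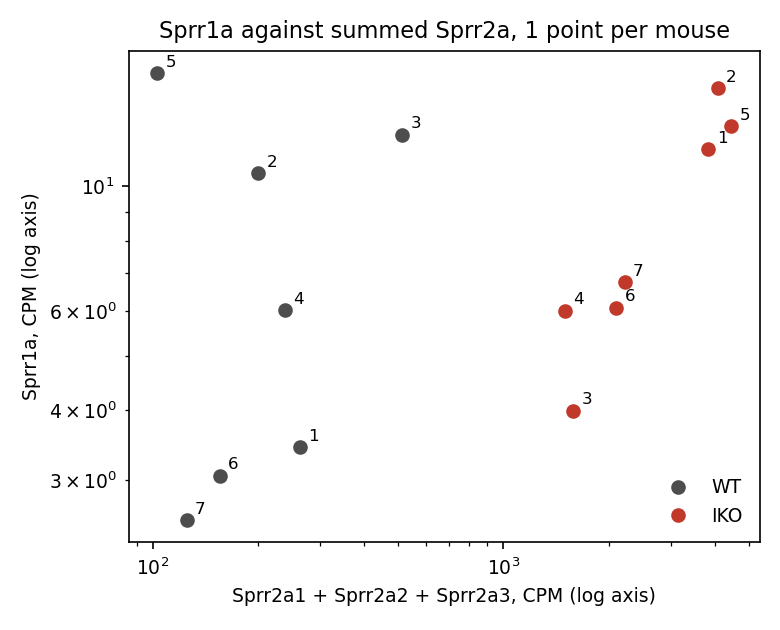
Sprr1a against the sum of the Sprr2a trio, both in CPM on log axes, 1 point per mouse with its number (WT grey, IKO red). The IKO points climb from IKO 3 and 4 to IKO 1, 2 and 5, while the WT points scatter, with WT 5 at the upper left.

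The sequences before the RefSeq starts, which do not lie alike on the genes, differ between the trio and its relatives. They are shown because Sprr2b and Sprr2d lie next to the trio and differ from it in level, and because the factors known to act at SPRR promoters of squamous cells (AP-1, octamer, ETS and KLF proteins) have short sites that can be looked for. RefSeq windows on GRCm38.p6 from 250 bases before to 50 bases after the start matched all 6 members. Printed is the part before both the RefSeq and the GENCODE start, on the strand of the gene, with motif matches in capitals: Sprr2a1 at chr3:92215585-92215798, Sprr2b at chr3:92316455-92316619, Sprr2d at chr3:92338890-92339139 (all plus strand) and Sprr1a at chr3:92485896-92486131 (minus strand).
Sprr2a1 upstream: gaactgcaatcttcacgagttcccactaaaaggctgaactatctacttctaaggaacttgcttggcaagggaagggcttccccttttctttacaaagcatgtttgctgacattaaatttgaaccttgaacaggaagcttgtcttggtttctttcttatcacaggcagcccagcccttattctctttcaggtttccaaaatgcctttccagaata
Sprr2b upstream: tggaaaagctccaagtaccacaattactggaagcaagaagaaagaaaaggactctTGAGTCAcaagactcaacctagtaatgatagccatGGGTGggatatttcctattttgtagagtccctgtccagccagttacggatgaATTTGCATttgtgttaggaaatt
Sprr2d upstream: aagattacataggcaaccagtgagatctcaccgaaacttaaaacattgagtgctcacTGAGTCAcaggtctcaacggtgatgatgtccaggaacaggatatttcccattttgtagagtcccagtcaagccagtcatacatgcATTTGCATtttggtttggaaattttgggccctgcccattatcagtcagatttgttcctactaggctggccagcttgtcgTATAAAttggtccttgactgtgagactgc
Sprr1a upstream: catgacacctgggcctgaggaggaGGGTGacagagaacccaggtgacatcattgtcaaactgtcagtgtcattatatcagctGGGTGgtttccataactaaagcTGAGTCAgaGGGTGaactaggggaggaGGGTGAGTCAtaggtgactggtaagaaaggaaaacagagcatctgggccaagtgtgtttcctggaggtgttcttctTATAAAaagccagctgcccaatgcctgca
The windows of Sprr2a1 and Sprr2a2 were identical over all 300 bases, and that of Sprr2a3 was identical to them over 272 aligned bases. Against Sprr2a1, identity was 61.6% for Sprr2b and 64.9% for Sprr2d over the aligned bases. The motifs were searched on both strands in the whole windows: AP-1 (TGANTCA, in 7.79% of 32544 distinct RefSeq windows of this length), octamer (ATTTGCAT, 1.75%), ETS (GGAAGT, 23.7%), KLF (CACCC, 57.7%), STAT (TTCNNNGAA, 8.33%), a TATA box (TATAAA, 13.6%) and the nuclear receptor half-site (AGGTCA, 16.2%).

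Sprr2b and Sprr2d had 3 kinds of match in common, in almost the same places. AP-1 was at -195 in Sprr2b and -193 in Sprr2d, the octamer at -108 and the TATA box at -29 in both, counted from the RefSeq start. The Sprr2b TATA box lies downstream of its GENCODE start and so outside the printed stretch. Sprr2b also had 1 ETS and 2 KLF matches, where Sprr2d had 0 of either. Sprr1a had 2 AP-1 and 4 KLF matches, one pair of which overlaps, and a TATA box at -43. The windows of Sprr2a1, Sprr2a2 and Sprr2a3 had 0 matches to AP-1, the octamer, ETS, the TATA box and the half-site, with only a KLF match at 38 after the start in Sprr2a1 and Sprr2a2 and a STAT match at -249 in Sprr2a3. The windows of Sprr2a2 and Sprr2a3 end before the GENCODE starts of their longest transcripts, 92250747 and 92285417. That of Sprr2a1 ends before 92215920, where a Sprr2a2 transcript starts. A site close before those starts, such as a TATA box, could not be found, so the missing matches do not show that the trio lacks sites its relatives have. A match describes letters only, a missing match says that these letters are not in this window, and binding was not measured in these data.

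The genes around the members give a local comparison. Within the 270 kb the table holds 23 annotated genes, of which 12 had counts and 6 were tested, the 5 members and Gm9774. Gm9774, which lies between Sprr2d and Sprr1a, was at 1.07 ± 0.359 CPM (SD, n = 7) for WT and 1.18 ± 0.140 CPM (SD, n = 7) for the IKO mice (log2 fold change 0.15, edgeR adjusted p = 0.725). The nearest tested gene before the members was S100a6, 1592 kb away (-0.09, adjusted p = 0.909), and after them Gm4202, 204 kb away (0.60, adjusted p = 0.251). None of these 3 genes was called.

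Genes of the squamous envelope were mostly without counts, while 0 of 14 S100 genes and 1 of 8 transglutaminase genes had no counts. Of 42 other genes of the cornified envelope and the epidermal differentiation complex, 26 had no counts and 3 were tested. Evpl and Ppl, which encode envoplakin and periplakin of the envelope's scaffold, had log2 fold changes of -0.42 and -0.43 and did not pass (adjusted p = 0.190 and 0.416). Mean levels in WT and IKO mice were 63.5 and 47.4 CPM for Evpl and 9.46 and 7.03 CPM for Ppl. Tchh (trichohyalin) fell, from 1.85 ± 1.05 to 0.366 ± 0.302 CPM (n = 7 each, log2 fold change -2.29, adjusted p = 0.014). Of 16 squamous marker genes 1 was tested, their summed level was 2.23 to 6.41 CPM in WT and 1.81 to 4.01 CPM in IKO mice, and the defining genes Trp63 and Ivl had 0 counts. Over the 7 WT and the 7 IKO mice, Krt5 had 5 and 1 counts, Krt14 40 and 14, Lor 18 and 9 and Krt13 15 and 2. The S100 genes of the complex, small calcium-binding proteins, had 7 of 14 tested and 0 called, with S100a10 the most abundant (0.57, adjusted p = 0.121). Its mean was 810 CPM in WT and 1200 CPM in IKO mice. Of 8 transglutaminases, the enzymes that crosslink SPRR proteins, Tgm2 (0.14, adjusted p = 0.5682) and Tgm5 (0.09, adjusted p = 0.895) were tested, and neither was called.

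Among 19 tested genes of intestinal antimicrobial and mucosal defence, 3 rose in IKO mice and 0 fell, beside 4.38% and 4.28% of all tested genes. The median log2 fold change was 0.29 against -0.09 over all tested genes, and this list too was chosen with earlier results known. Duoxa2, the maturation factor of the epithelial NADPH oxidase, rose from 9.87 ± 1.02 to 147 ± 76.0 CPM (SD, n = 7 each, log2 fold change 3.89, SE 0.35, adjusted p = 7.6e-05), without overlap. Duox2, the oxidase itself, rose from 56.1 ± 19.5 to 397 ± 231 CPM (2.82, SE 0.45, adjusted p = 0.0030), with IKO 4 inside the WT range. Nos2, the inducible nitric oxide synthase, rose by 1.69 (SE 0.41, adjusted p = 0.022). The lectins Reg3b (-0.35, adjusted p = 0.722) and Reg3g (0.34, adjusted p = 0.709) and the lysozyme Lyz1 of Paneth cells (-0.23, adjusted p = 0.756), like Sprr2a products of the epithelium facing bacteria, did not pass. Centred within genotype over 14 mice, the median r of the 19 genes with the Sprr2a sum was -0.14. The highest was 0.71 for Pglyrp1, which was not called (log2 fold change 0.81, edgeR adjusted p = 0.071), while r was -0.07 for Duoxa2 and 0.17 for Duox2. Single mice went both ways. WT 3 was the highest WT mouse for Sprr2a (515 CPM) and for Duox2 (91.7 CPM), and IKO 5, the highest IKO mouse for Sprr2a, was second highest for Duox2 (506 CPM). IKO 2, with 4080 CPM of Sprr2a, had 53.8 CPM of Duoxa2, the second lowest of the IKO mice.

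Of 37 tested genes in 3 signalling lists, 4 rose (10.8%) and 3 fell (8.11%), beside 4.38% and 4.28% of all tested genes. In microbe sensing and MYD88 signalling, which relays the bacterial signal, 2 of 15 tested genes rose and 2 fell. Irak4, the kinase below MYD88, rose from 35.9 ± 7.11 to 59.1 ± 4.499 CPM (n = 7 each, log2 fold change 0.72, adjusted p = 0.0084), without overlap, and Nfkbia, an NF-κB inhibitor, rose by 0.63 (adjusted p = 0.019). Nod1 fell by 0.97 (adjusted p = 0.044) and Il1r1 fell by 1.68 (adjusted p = 0.041), a sensor of bacterial wall fragments and an interleukin receptor, both with means under 10 CPM. In the IL-4, IL-13 and STAT6 response, known from worm infection, 0 of 9 tested genes were called, and its most abundant genes Clca1 (0.09, adjusted p = 0.912) and Il13ra1 (0.73, adjusted p = 0.242) did not pass. In the IL-6, IL-22 and STAT3 response 2 of 13 rose and 1 fell: Bcl3, an NF-κB cofactor (1.36, adjusted p = 0.0052), Stat3 (0.56, adjusted p = 0.041) and the fucosyltransferase Fut2 (-1.13, adjusted p = 0.042).

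Of 23 tested factors known to act at SPRR promoters, 3 rose and 0 fell, beside 4.38% and 4.28% of all tested genes. The median log2 fold change was 0.19 against -0.09 over all tested genes, and the list was chosen with earlier results of these data known. Elf3, an epithelial ETS factor, rose from 224 ± 66.3 to 386 ± 77.7 CPM (n = 7 each, log2 fold change 0.79, adjusted p = 0.028). Irf1, an interferon response factor, rose from 161 ± 46.3 to 267 ± 15.4 CPM (0.73, adjusted p = 0.024), and Ets2 rose from 123 ± 26.0 to 189 ± 15.9 CPM (0.62, adjusted p = 0.021). The values are RNA levels, the activity of these factors was not measured, and their part in the Sprr2a difference was not tested. Calls on Duoxa2, Duox2, Bcl3 and Irak4 were kept in all 24 other fits. That on Elf3 was lost without WT 1, WT 4, WT 7, IKO 2 or IKO 5 (adjusted p up to 0.0633), those on Irf1 and Ets2 without IKO 1 (adjusted p = 0.0524 for both), and those on Stat3, Nod1, Il1r1 and Fut2 with any of 9 to 11 of the 14 libraries left out (adjusted p up to 0.0885). Without WT 4 and IKO 4 together, Elf3 (adjusted p = 0.0709), Irf1 (0.0564), Ets2 (0.0587) and Nfkbia (0.0577) did not pass. With the replicate number as a block, which pairs no mice, the list calls other than Duoxa2, Duox2, Bcl3 and Irak4 were lost, Nos2 (adjusted p = 0.0546), Nfkbia (0.0677) and Tchh (0.0506) among them. Ets2 also did not pass without a filter on low counts (0.0574), nor Nos2 (0.0789) and Tchh (0.0583) by limma on log2(FPKM + 1) without a filter.

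**Figure D5:**
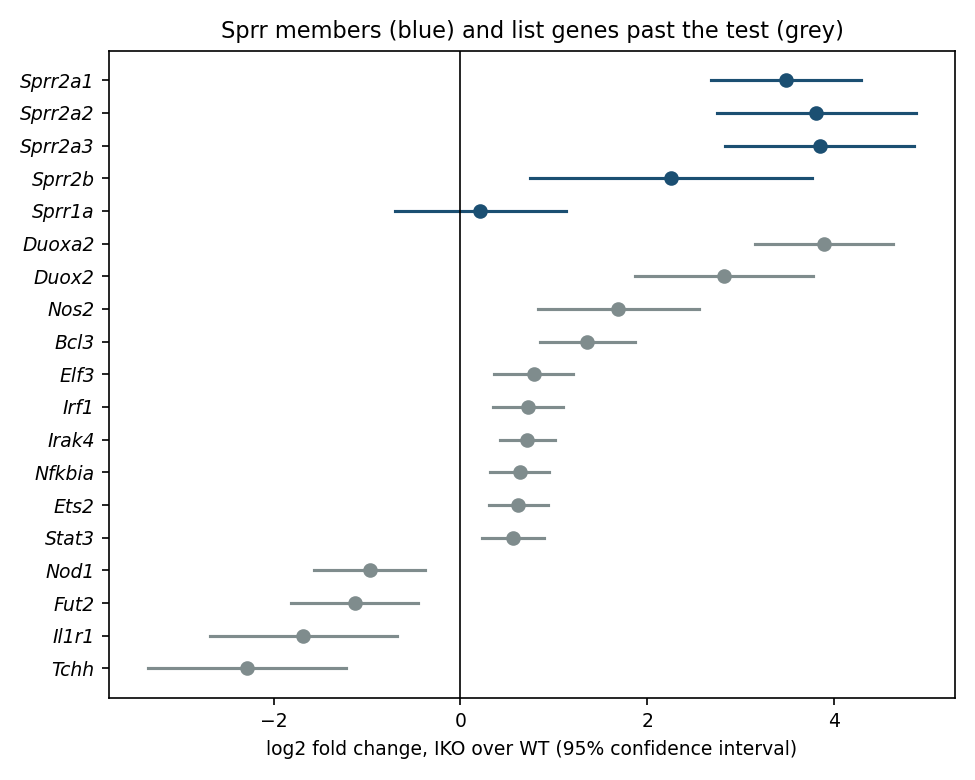
Log2 fold change of IKO over WT (horizontal axis) with 95% confidence intervals for the 5 Sprr members with a fit (blue) and the 14 genes of the pathway lists that passed the test (grey). Duoxa2 at 3.89 lies beside the Sprr2a trio at 3.49 to 3.85, and the interval of Sprr1a spans 0.

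Most cell type markers were not called. Of the markers of enterocytes (10 tested), villus tip enterocytes (12), goblet cells (10) and stem and crypt cells (8), 0 were called in either direction. Of 11 Paneth cell genes 1 rose (Pnliprp2, 1.38, adjusted p = 0.0093) and 1 fell (Mptx1, -1.77, adjusted p = 0.049). The summed goblet cell level ranged from 3854 to 16741 CPM in WT and from 4021 to 20452 CPM in IKO mice, and that of Paneth cells from 737 to 5802 and from 1374 to 6792 CPM, so both overlapped between the genotypes. Among the remaining marker lists, Avil of tuft cells and Siglecf of eosinophils fell, Cd14 of macrophages rose, and no marker of smooth muscle, fibroblasts and endothelium, T cells or B cells was called. Medians of several lists lay away from 0 although few or none of their genes were called. The median log2 fold change was -3.04 for smooth muscle (0 of 8 above 0), where WT 4 held the high level given above, and -1.60 for fibroblasts and endothelium (1 of 8 above 0, summed level 10.2 to 360.0 CPM in WT and 11.8 to 45.8 CPM in IKO mice). It was -1.19 for B and plasma cells (2 of 8 above 0, 1022 to 2909 and 661 to 3167 CPM), -0.71 for tuft cells (0 of 7 above 0, 33.8 to 86.0 and 18.9 to 41.0 CPM) and -0.60 for stem and crypt cells (1 of 8 above 0, 178 to 451 and 151 to 349 CPM). It was 0.49 for villus tip enterocytes (10 of 12 above 0, 3587 to 16903 and 7818 to 16765 CPM) and 0.34 for enterocytes (7 of 10 above 0). All these summed levels overlapped between the genotypes. The part of these cells in the Sprr2a difference was not tested, and the trio's values without WT 4 and IKO 4 are given above.

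Few genes had a high correlation with the trio across mice. Of 11265 genes with a mean log2 CPM of at least 1, 38 had r of at least 0.7 with the log2 Sprr2a sum after centring within genotype, and 33 had r of -0.7 or below (n = 14). The counts in the 2 directions are alike, and how many unrelated genes would reach them was not tested. The genes named next are therefore only the extremes of many comparisons, and no shared profile is read from them. The closest were Pip4p1 (0.85), Erp29 (0.82), Vps8 (0.82), Aldoc (0.79), Borcs6 (0.78), 2610035D17Rik (0.77), Ric8a (0.76), Tnpo2 (0.76), Cela1 (0.76) and Mad2l1bp (0.76). The farthest were Dcaf17 (-0.81), Kbtbd7 (-0.79) and Kif27 (-0.77). Of the 10 closest, Aldoc (1.51, adjusted p = 0.0061), Cela1 (1.19, adjusted p = 0.0044) and Mad2l1bp (0.77, adjusted p = 0.021) were called higher in IKO mice by edgeR's test. Of all tested genes 4.38% were, and nothing is read from the calls among these picked genes. Within a genotype, r between the log2 Sprr2a sum and the mitochondrial share of counts was 0.78 in WT and -0.52 in IKO mice (n = 7 each). Each value rests on 1 library, since r was 0.19 without WT 3 and -0.04 without IKO 4. With the log2 level of Ncor1, r was -0.18 in WT mice, or 0.13 without WT 3, and -0.66 in IKO mice, where it stayed between -0.81 and -0.55 with any mouse left out.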

How the data were processed

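The paper gives NEBNext Ultra libraries, paired-end NovaSeq reads of 150 bases, alignment by HISAT2 (v2.0.5) and counting by featureCounts (v1.5.0-p3). Deposited counts are unnormalized whole numbers per gene. The deposited FPKM equal the counts per kilobase divided by 1 factor per sample, which the authors' files show within 0.1%. Strandedness and the handling of reads with several matches are not given in the sources used here. The KO columns were read as IKO, from the sample titles.

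Counts were filtered with filterByExpr, TMM-normalized and fitted with edgeR 4.0.16 (glmQLFit and glmQLFTest, R 4.3.3) on genotype alone, and p-values were Benjamini-Hochberg adjusted across 13846 genes, threshold 0.05. TMM factors enter the CPM, and a prior count of 2 was added for log2 levels. The samples are separate mice, and the closest pair still differed beyond sampling noise. Alternatives were DESeq2 1.42.0, RLE factors, other filters, limma 3.58.1 on log2 FPKM with pseudocounts of 1 and 0.1, mitochondrial genes left out, a replicate block and each sample left out. Leaving out WT 4 and IKO 4 together was added after the data were seen. The method was tested on simulated counts. For a count, sampling noise falls with depth, so Sprr2b (54 counts in WT) is far less precise than Sprr2a1 (18901).

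The members and lists were chosen with earlier results of these data known. Genes named are the 6 members, the other Sprr genes, in each pathway list up to 4 called genes per direction with the largest log2 fold change or else the 2 most abundant, the 10 most and 3 least alike the Sprr2a profile, the nearest tested genes and Ncor1. Further genes (Reg3b, Reg3g, Lyz1, Pglyrp1, Evpl, Ppl, Gm9774 and markers) were named after their values were seen. Transcripts are GENCODE M21 and upstream windows RefSeq, aligned with Biopython 1.88. Protein sequences were not used here.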

Additional observations from a re-analysis of the deposited data

Results flagged for a closer look

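Of 46 groups of 7 mice examined, 4 held a mouse whose gap to its nearest neighbour exceeded Dixon's 95% critical value, and chance alone flags about 1 in 20 groups. WT 3 stood above the other WT mice for Sprr2a3 (74.6 CPM, a gap of 0.781 of the WT range) and for the Sprr2a sum (515 CPM, gap 0.612), which share counts and so are not separate signs. WT 3 was also the highest WT mouse for Nfkbia (89.6 CPM, gap 0.576), and mitochondrially encoded genes took 23.9% of its counts. IKO 3 stood above the other IKO mice for Nos2 (669.5 CPM, gap 0.578).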

How the results depend on the processing

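The direction of every member with a fit was kept in all alternatives run, but none is read for Sprr1a, whose interval spans no change. Of the pathway list genes 14 were called. The count was 9 with no filter, 6 without WT 4 and IKO 4 together, and 8 to 15 when single mice were left out, falling to 8 without IKO 1 and to 9 without WT 4, without WT 7 and without IKO 5. DESeq2 called 19. Over all genes, 1200 were called, between 362 with the replicate block and 2571 with DESeq2. With FPKM in place of counts the median share of Sprr2a1 in WT mice was 51.8%. The cause of these shifts was not tested.

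With the replicate block 4 list genes were called. Mice of the same number did not deviate together (correlations between -0.31 and 0.23), so the numbers pair no mice.

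Sprr2b rests on few counts, Sprr2d is limited by depth, and the division between Sprr2a1 and Sprr2a2 by shared sequence.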
